A study of Mus musculus with 12 samples.

Results

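The genes described here are 10 transcripts that follow the output of the extracellular signal-regulated kinases (ERK) and, with the exception of the Etv factors, restrain the pathway that induces them. They are the MAPK phosphatases Dusp4, Dusp5 and Dusp6, the Sprouty genes Spry1, Spry2 and Spry4, the Spred genes Spred1 and Spred2, and the Pea3 transcription factors Etv4 and Etv5. They were chosen by gene symbol. All 10 were present among the 55421 Ensembl genes of the deposited count table, and all 10 were among the 18108 genes that passed the low-count filter. The lowest count of any of them in any library was 515, for Spry1.

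In the RAS-ERK pathway, a growth factor receptor activates the GTPase RAS, which activates the kinase RAF, which activates MEK and then ERK. Active ERK enters the nucleus and switches on genes that limit it, so that the RNA of these genes is widely read as a trace of ERK output. Dusp6 removes the activating phosphates from ERK in the cytoplasm and Dusp5 does so in the nucleus, while Dusp4, also nuclear, acts on ERK and on the stress kinases. Sprouty proteins act between the receptor and RAF. Spred proteins bring the RAS inhibitor neurofibromin to the membrane. Etv4 and Etv5 are ETS-family factors that carry the transcriptional response downstream of fibroblast and epidermal growth factor receptors. In squamous epithelium and its tumours, signalling from the epidermal growth factor receptor through RAS is a main driver of growth.

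The cells were MOC2, a squamous cell carcinoma line of the mouse mouth, in 2 derivatives named MOC2-25, labelled EV-Proficient, and MOC2-27, labelled EV-Deficient. The study genetically blocked the release of extracellular vesicles (EVs, membrane particles shed by cells) to ask what part those of senescent tumour cells play in inflammatory responses. The labels name neither the gene nor the construct. Paclitaxel stabilises microtubules and was the inducer of senescence. Each derivative was given DMSO (titled control) or paclitaxel at 600 nM for 48 h, with 3 libraries in each of the 4 groups. Per the labels' protocols the culture medium held serum, epidermal growth factor, insulin, hydrocortisone, transferrin, tri-iodothyronine and cholera toxin, so a ligand of the pathway was supplied to all 4 groups. Each EV label is carried by a single derivative, so the EV label cannot be told apart from any other difference between the derivatives. The labels do not say whether the 3 libraries of a group came from separate cultures, so the p-values measure only the spread between these libraries.

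Library totals ran from 23263472 to 62955757 counts. The 8 epithelial markers summed to 4917 to 5317 CPM (counts scaled to the library size) in EV-proficient and 5370 to 5823 in EV-deficient DMSO libraries, and to 3392 to 3716 and 3023 to 3140 CPM under paclitaxel. Of these, Krt14 had group means of 191 and 191 CPM (DMSO, then paclitaxel) under the EV-proficient label and 681 and 80.0 CPM under the EV-deficient label, and Krt6a of 42.0 and 15.5 and of 318 and 2.48 CPM. Krt5 and Trp63 were at most at 0.18 CPM in any library, while Krt8, Krt18, Cdh1 and Epcam were each at a mean of at least 407 CPM in every group. Fibroblast markers summed to 0.62 to 1.21 CPM in DMSO and 1.29 to 3.36 in paclitaxel libraries, and endothelial markers to 1.69 to 2.49 and 2.55 to 4.26 CPM. The 3 leukocyte markers summed to 6.61 to 9.56 CPM in DMSO and 22.4 to 39.9 CPM in paclitaxel libraries. Nearly all of this was Cd68, with the pan-leukocyte gene Ptprc at most at 1.54 CPM and the T-cell gene Cd3e at or under 3 counts in every library. Mitochondrial genes took 0.550% to 0.729% of the counts in DMSO, 0.846% to 0.907% in EV-proficient paclitaxel and 1.07% to 1.45% in EV-deficient paclitaxel libraries. The part of these differences in the results was not tested. In bulk RNA, fewer cells of a type and less RNA per cell cannot be told apart. A row that the authors added to the table under the name dngfr did not keep to the EV labels. It was at 5.73 to 12.2 CPM in EV-proficient and 1.89 to 2.54 CPM in EV-deficient DMSO libraries, but at 2.47 to 3.76 and 9.63 to 12.4 CPM in the corresponding paclitaxel libraries. A second added row, gfp, held 0 counts in all 12. Which derivative carries these sequences is not given in the sources used here. The crossing was not limited to this row. On the second principal component of log2 CPM the EV-proficient DMSO libraries (27.2 to 36.5) lay with the EV-deficient paclitaxel libraries (34.2 to 43.5), and the EV-deficient DMSO (-24.7 to -20.5) with the EV-proficient paclitaxel libraries (-64.6 to -37.9). In the last of these groups, replicate 3 (which had the fewest counts of all) stood apart at -64.6 from its fellows at -37.9 and -40.1, and the fits without it are given where they change a call. Of the 2834 genes called between EV labels under both treatments, 2722 (96%) had opposite signs. Whether the EV labels of 1 treatment are exchanged was not tested, and the sources used here do not settle it. Such an exchange would change the meaning of every paclitaxel effect given within an EV label, every difference between EV labels in that treatment and every interaction, all of which stand below for the libraries as labelled. It would leave the paclitaxel effect averaged over both EV labels as it is, and that effect is given first.

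Promoter sequences come from RefSeq's GRCm38.p6 annotation, in which 7 of the 10 genes were matched (all but Dusp4, Spry4 and Etv4). The following stretches, written 5′ to 3′ on the strand of the gene, end at the base before the annotated gene. Dusp5 and Dusp6 are shown because these related phosphatases moved in opposite directions under paclitaxel, and Spry1 and Etv5 because their values over the 12 libraries lay closest together among the members. Capitals mark matches to the CArG box, the element bound by serum response factor.
Dusp5 promoter, GRCm38 chr19:53528895-53529108, plus strand: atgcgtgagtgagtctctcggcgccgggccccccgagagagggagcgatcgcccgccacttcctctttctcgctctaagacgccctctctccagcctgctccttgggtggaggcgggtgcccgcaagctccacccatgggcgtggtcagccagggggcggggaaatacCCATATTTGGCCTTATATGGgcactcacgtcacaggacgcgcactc
Dusp6 promoter, GRCm38 chr10:99262981-99263230, plus strand: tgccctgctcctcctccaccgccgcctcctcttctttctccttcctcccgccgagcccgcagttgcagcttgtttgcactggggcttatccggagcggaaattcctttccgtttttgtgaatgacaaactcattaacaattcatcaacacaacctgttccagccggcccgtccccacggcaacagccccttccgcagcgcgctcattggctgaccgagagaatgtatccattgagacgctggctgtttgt
Spry1 promoter, GRCm38 chr3:37639697-37639946, plus strand: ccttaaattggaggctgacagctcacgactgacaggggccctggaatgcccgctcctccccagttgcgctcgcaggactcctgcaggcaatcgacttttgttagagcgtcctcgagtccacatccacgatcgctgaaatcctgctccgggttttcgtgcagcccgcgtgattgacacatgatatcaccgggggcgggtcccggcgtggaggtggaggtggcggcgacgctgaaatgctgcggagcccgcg
Etv5 promoter, GRCm38 chr16:22439720-22439820, minus strand: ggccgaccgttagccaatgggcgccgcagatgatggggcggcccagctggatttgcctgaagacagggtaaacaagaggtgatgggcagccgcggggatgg
Over the 250 bases before each RefSeq start site, 4 motifs were searched on both strands: the CArG box, the ETS core CCGGAA, the cyclic AMP response element TGACGTCA and the AP-1 site TGANTCA. The Dusp5 window held 2 CArG boxes, CCATATTTGG and CCTTATATGG, which lie 82 to 73 and 72 to 63 bases before the RefSeq start and so abut. This window ended at base 53529144, beyond the end of the Dusp5 stretch printed above. No other of the 8 member windows (Etv5 has 2) matched the CArG box, and none matched the other motifs in these letters. Among all 32851 promoters of this length, 1.47% held a CArG box, 12% the ETS site, 1.55% the cyclic AMP element and 6.75% the AP-1 site. A match describes the sequence and is not evidence of binding.

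Compared per kilobase of exon (RPKM), the 3 phosphatases and Etv4 were the 4 most abundant of the 10 in every group. Dusp4 was first in every group, at 71.6 ± 0.61 RPKM in EV-proficient DMSO and 183 ± 2.8 RPKM in EV-proficient paclitaxel libraries (SD, n = 3 each). Under DMSO it was followed by Dusp5 (61.2 ± 2.7 RPKM in the EV-proficient group) and then by Etv4 and Dusp6 at 33.0 ± 1.5 and 29.3 ± 1.1 RPKM. Under paclitaxel Dusp6 stood second, at 55.9 ± 3.3 RPKM in the EV-proficient and 44.5 ± 8.3 RPKM in the EV-deficient group. Spry4 was last in all 4 groups, at 3.26 to 5.26 RPKM as group means. Spry1, Spred1 and Spry4 were the 3 least abundant in every group.

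**Figure D1:**
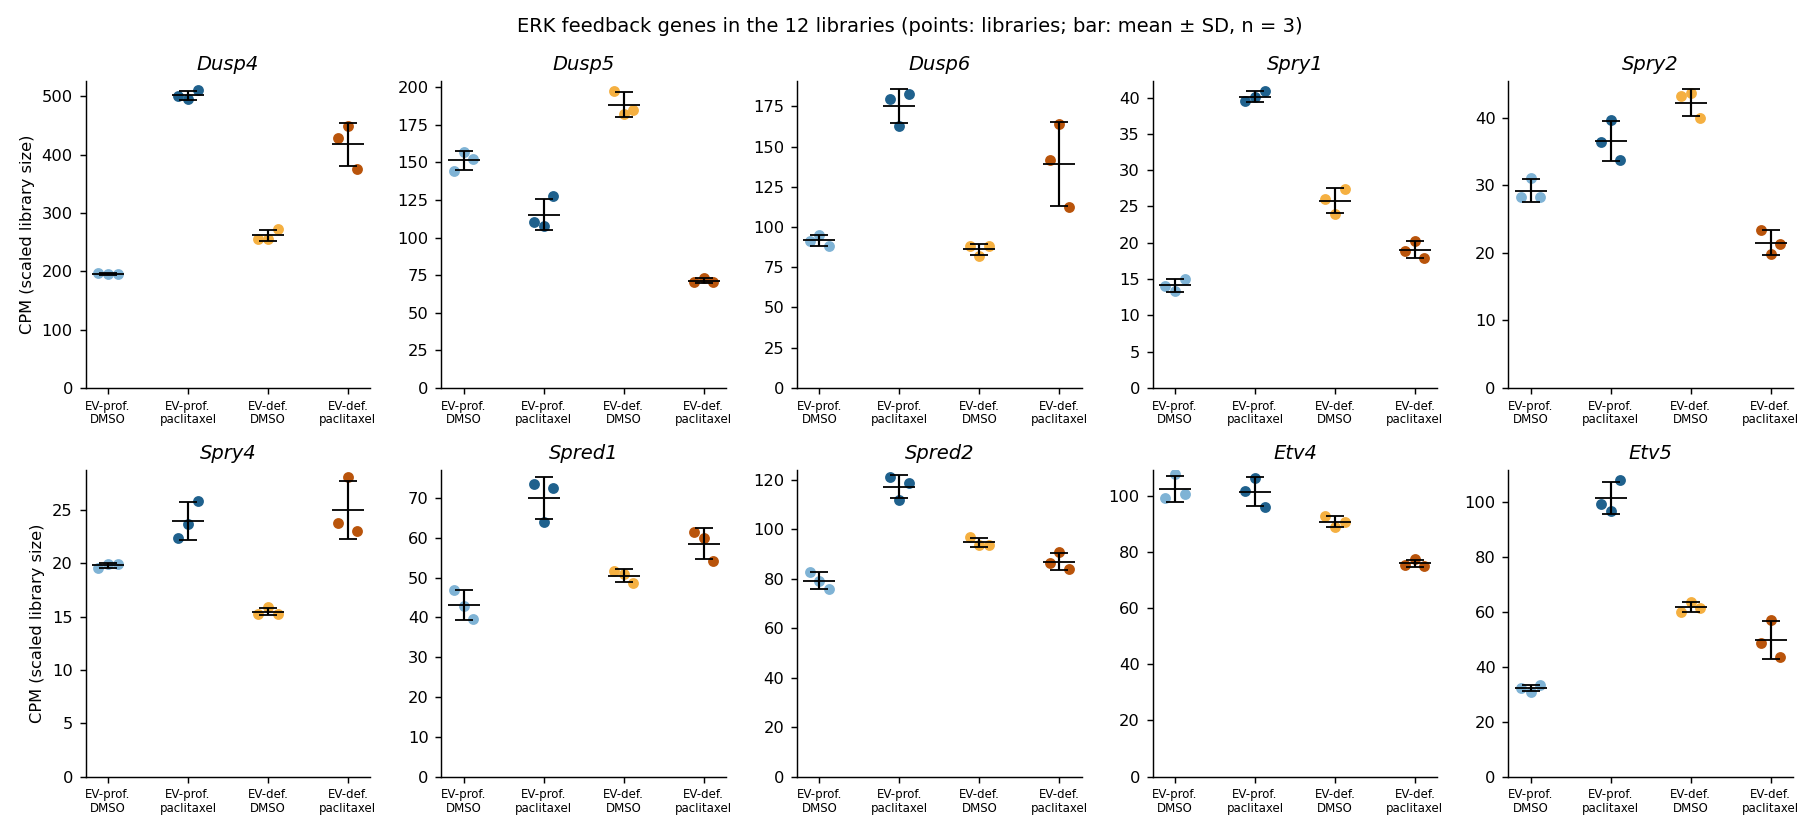
CPM (counts scaled to the library size, vertical axis from 0) of the 10 ERK feedback genes in the 4 groups; points are libraries and bars the mean ± SD of 3. Dusp5 sits lower in both paclitaxel groups than in both DMSO groups, Dusp4 and Dusp6 sit higher, and Spry1 and Etv5 are highest in EV-proficient paclitaxel and lowest in EV-proficient DMSO libraries.

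Whether paclitaxel changed the ERK feedback genes was tested first over both EV labels. All 10 passed the threshold, 7 of them higher and 3 lower under the drug, where 68.4% of all tested genes were called (37.1% higher, 31.3% lower). Within both EV labels at once, the paclitaxel libraries of 4 members (Dusp4, Dusp6, Spry4 and Spred1) lay above the DMSO libraries without overlap, as for 20% of all genes, and those of Dusp5 lay below, as for 19.7%. The median log2 fold change of the 10 was 0.47, against 0.07 over all genes tested. Dusp4, Dusp6 and Etv5 rose most and Dusp5 fell most. The means of Etv5, Spry1 and Spry2 join called changes of opposite signs under the 2 EV labels as given. The fall of Etv4 (log2 fold change -0.14 ± 0.04 SE) was not called under upper-quartile scaling (-0.01), a scaling that moved the median of all genes in this comparison by 0.12.

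Among the phosphatases, Dusp4 (chr8:34807297-34819894, GRCm38) was at 198, 196 and 195 CPM under DMSO and 501, 495 and 511 CPM under paclitaxel in the EV-proficient groups. In the EV-deficient groups it was at 256, 256 and 273 CPM under DMSO and 428, 449 and 376 CPM under paclitaxel. All 6 paclitaxel libraries lay above all 6 DMSO libraries. The mean paclitaxel effect was a log2 fold change of 1.02 ± 0.04 SE, or 2.02-fold (edgeR quasi-likelihood adjusted p 2.3e-14). Dusp6 (chr10:99263231-99267489), the cytoplasmic ERK phosphatase, was at 91.6, 95.3 and 88.3 CPM in EV-proficient DMSO and 180, 163 and 183 CPM in EV-proficient paclitaxel libraries. In the EV-deficient groups it was at 88.2, 82.2 and 88.3 CPM under DMSO and 142, 164 and 112 CPM under paclitaxel. Its DMSO libraries were tight and all below its paclitaxel libraries, of which EV-deficient replicate 3 was the lowest. The mean effect was 0.81 ± 0.07 SE (edgeR adjusted p 4.3e-10), or 1.75-fold.

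Dusp5 (chr19:53529109-53542431), the nuclear phosphatase that acts on ERK alone, went the other way. It was at 144, 157 and 152 CPM in EV-proficient DMSO and 110, 108 and 127 CPM in EV-proficient paclitaxel libraries. Under the EV-deficient label it went from 198, 182 and 185 CPM to 70.1, 73.3 and 70.3 CPM. No paclitaxel library reached a DMSO library under either label. The mean effect was a log2 fold change of -0.90 ± 0.05 SE (edgeR adjusted p 3.7e-13), which is 1.86-fold lower. An antisense gene, AC137853.2, overlaps Dusp5 on the opposite strand, and since strand use in counting is not given in the sources used here, reads of the pair cannot be told apart. The same holds for Spry1 and Gm42922 and for Spry4 and the small RNAs annotated opposite it. Dusp4 and Dusp5 were the members whose values over the 12 libraries lay farthest apart.

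The Sprouty genes divided. Spry4, on chromosome 18, rose under both labels, from 19.8 ± 0.19 to 24.0 ± 1.7 CPM in the EV-proficient and from 15.5 ± 0.35 to 25.0 ± 2.8 CPM in the EV-deficient groups (SD, n = 3 each). Its libraries did not overlap within either label, and the mean effect was 0.48 ± 0.06 SE (edgeR adjusted p 7.6e-07). Within the EV-proficient groups alone its rise was 0.27 ± 0.09 SE and lost its call without EV-proficient paclitaxel replicate 2 (0.22) or replicate 3 (0.18).

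Spry1 (chr3:37639947-37644598) had opposite signs under the 2 EV labels, in the libraries as labelled. It rose from 14, 13.3 and 15.1 CPM to 39.5, 40.1 and 40.9 CPM in the libraries labelled EV-proficient. In those labelled EV-deficient it fell from 26.1, 23.9 and 27.4 CPM to 18.8, 20.3 and 18 CPM. The groups did not overlap in either comparison. The log2 fold changes were 1.51 ± 0.08 SE (edgeR adjusted p 3.9e-12) and -0.44 ± 0.08 SE (edgeR adjusted p 7.0e-05). Spry2 (chr14:105891947-105896819) also had opposite signs. It was at 28.3, 31.1 and 28.2 CPM in EV-proficient DMSO and 36.5, 39.6 and 33.7 CPM in EV-proficient paclitaxel libraries, and went from 43.1, 43.6 and 40.0 to 23.4, 19.8 and 21.2 CPM under the EV-deficient label. Its EV-deficient libraries thus ran from the highest of the 4 groups to the lowest. The rise was 0.33 ± 0.08 SE (edgeR adjusted p 0.0018), not called without EV-proficient paclitaxel replicate 2 (0.21), and the fall was -0.97 ± 0.08 SE (edgeR adjusted p 1.2e-09).

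Both Spred genes, whose proteins recruit neurofibromin, rose in the EV-proficient groups. Spred1 (chr2:117121374-117182279) went from 39.5 to 46.9 CPM under DMSO to 63.9 to 73.5 CPM under paclitaxel as ranges over 3 libraries, a log2 fold change of 0.70 ± 0.08 SE. Spred2 (chr11:19924375-20024026) went from 76.0 to 82.7 CPM to 112 to 121 CPM, a change of 0.56 ± 0.06 SE. In the EV-deficient groups the rise of Spred1 was smaller (0.22 ± 0.08 SE, edgeR adjusted p 0.018) and was lost without EV-deficient DMSO replicate 2 (0.21) or 3 (0.17), without EV-deficient paclitaxel replicate 1 (0.17) or without the low-count filter (0.18). The EV-deficient value of Spred2 was -0.13 ± 0.06 SE (edgeR adjusted p 0.074), which became 0.06 under upper-quartile scaling. It was called in the fits without EV-proficient DMSO replicate 1 (-0.14), EV-proficient paclitaxel replicate 2 (-0.14) or EV-deficient paclitaxel replicate 2 (-0.15).

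The Pea3 factors differed from each other. Etv5 (chr16:22381309-22439719) was at 32.3, 31.0 and 33.4 CPM in EV-proficient DMSO and 99.4, 96.9 and 108 CPM in EV-proficient paclitaxel libraries, a log2 fold change of 1.65 ± 0.08 SE (edgeR adjusted p 7.9e-13). In the EV-deficient groups it fell from 60.1, 63.8 and 61.4 to 48.6, 57.1 and 43.6 CPM (-0.31 ± 0.08 SE, edgeR adjusted p 0.0019), a call not made under upper-quartile scaling (-0.13). The groups did not overlap in either comparison. Etv4 (chr11:101769742-101785371) was at 102 ± 4.6 CPM in EV-proficient DMSO and 101 ± 5.2 CPM in EV-proficient paclitaxel libraries (SD, n = 3 each), a log2 fold change of -0.01 ± 0.06 SE whose sign differed between alternatives (-0.04 to 0.05). In the EV-deficient groups Etv4 fell from 90.8 ± 1.9 to 75.9 ± 1.3 CPM (-0.26 ± 0.06 SE, edgeR adjusted p 7.5e-04), which upper-quartile scaling did not call (-0.07).

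By EV label, paclitaxel raised 8 of the 10 genes and lowered 1, Dusp5, in the EV-proficient groups, where 58.2% of all tested genes were called (31.1% higher, 27.1% lower). In the EV-deficient groups it raised 4 (Dusp4, Dusp6, Spry4 and Spred1) and lowered 5 (Dusp5, Spry1, Spry2, Etv4 and Etv5), where 62.9% of all genes were called (32.4% higher, 30.5% lower). The members' median log2 fold changes were 0.63 and -0.19, against 0.05 and 0.07 over all genes. Upper-quartile scaling moved the median of all genes in the EV-deficient comparison by 0.18 and the higher portion of the called genes from 51.5% to 63.4%. Under it 3 members were called lower there, and their median became -0.01. The 8 members called under both labels had the same sign in 5 and opposite signs in 3 (Spry1, Spry2 and Etv5). Of the 8066 genes called under both labels, 1283 (15.9%) had opposite signs. Groups did not overlap for 8 members higher and 1 lower in the EV-proficient comparison, where 62.3% of all genes did not (33.1% higher, 29.2% lower). In the EV-deficient comparison they did not for 4 higher and 6 lower, where 68.7% of all genes did not (35.2% higher, 33.5% lower).

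**Figure D2:**
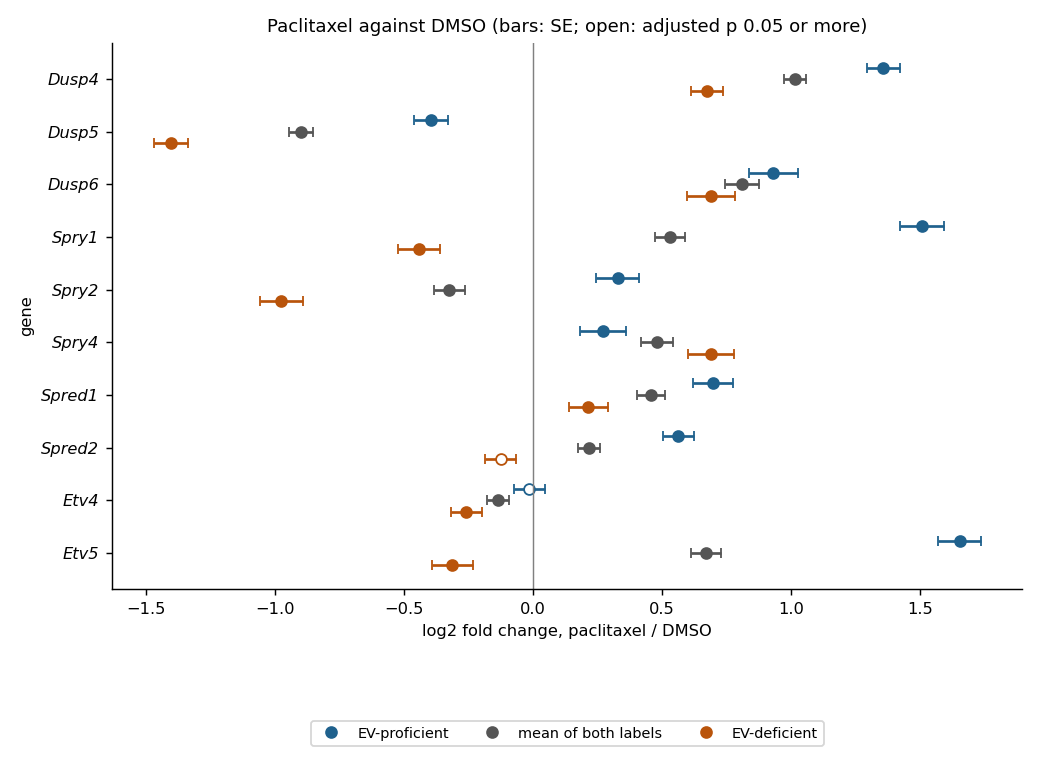
Log2 fold change of paclitaxel against DMSO (horizontal axis) for each ERK feedback gene, in the EV-proficient groups, in the EV-deficient groups and as the mean of both; bars are standard errors and open symbols did not pass the threshold. Dusp5 lies below 0 in all 3, while Spry1, Spry2 and Etv5 lie on opposite sides of 0 under the 2 EV labels as given.

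The difference of the paclitaxel effects, EV-deficient minus EV-proficient, was tested as an interaction, whose values stand for the libraries as labelled. It passed the threshold for 9 of the 10 genes, 8 negative and 1 positive, where 40.7% of all tested genes were called (23.8% negative, 16.9% positive). The median interaction of the members was -0.69 and that of all genes -0.04. Etv5 (-1.97 ± 0.12 SE, edgeR adjusted p 1.4e-11) and Spry1 (-1.95 ± 0.12 SE, edgeR adjusted p 2.2e-11) had the largest, followed by Spry2 (-1.30 ± 0.12 SE) and Dusp5 (-1.01 ± 0.09 SE). Those of Spred2 (-0.69 ± 0.08 SE), Dusp4 (-0.68 ± 0.09 SE) and Spred1 (-0.48 ± 0.11 SE) were smaller. Spry4 alone was positive (0.42 ± 0.13 SE, edgeR adjusted p 0.011), which was not called without the low-count filter (0.35). Etv4 (-0.25 ± 0.08 SE, edgeR adjusted p 0.025) lost its call in 6 of the 12 fits that each left out a library, those without EV-deficient DMSO replicate 1, EV-proficient paclitaxel replicate 1 or 2, or any EV-deficient paclitaxel library (-0.16 without EV-proficient paclitaxel replicate 2). It was also not called under median-of-ratios (-0.20) or upper-quartile scaling (-0.12). Dusp6 was not called (-0.24 ± 0.13 SE, edgeR adjusted p 0.16), but passed the threshold when no low-count filter was used (-0.31) or without EV-deficient paclitaxel replicate 2 (-0.33). It was -0.07 without EV-deficient paclitaxel replicate 3 and -0.12 under upper-quartile scaling. Under upper-quartile scaling the all-gene median of this difference moved by 0.12 and the share of positive interactions among those called from 41.4% to 53.9%.

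The values that the same fit gives with the EV labels of 1 treatment exchanged were computed after the data were seen, with no call. The difference of the paclitaxel effects would then be 0.09 ± 0.11 SE in size for Etv5, 0.21 ± 0.12 for Spry1, 0.24 ± 0.12 for Spry2, 0.38 ± 0.09 for Dusp5, 0.17 ± 0.08 for Spred2, 0.15 ± 0.09 for Dusp4 and 0.03 ± 0.11 for Spred1, each smaller than as labelled. It would also be smaller for Spry4, at 0.29 ± 0.13. For Etv4 (0.59 ± 0.08) and Dusp6 (0.42 ± 0.13) it would be larger than as labelled. For every member its sign would depend on which treatment is exchanged. The order of the members by this difference, and the count of 8 negative values, therefore hold for the labels as given and not for exchanged labels. The paclitaxel effects from EV-proficient DMSO to EV-deficient paclitaxel and from EV-deficient DMSO to EV-proficient paclitaxel libraries would be 0.43 and 0.64 for Spry1, 0.63 and 0.72 for Etv5, and -0.44 and -0.20 for Spry2, with the same sign in both. Etv4 alone would have opposite signs (-0.43 and 0.16).

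What the EV label changed was compared within each treatment. Under DMSO, the EV-deficient libraries were higher for 7 of the 10 genes and lower for 2, where 23.0% of all tested genes were called (12.4% higher, 10.6% lower). Etv5 (log2 fold change 0.94 ± 0.08 SE, edgeR adjusted p 2.0e-08) and Spry1 (0.87 ± 0.08 SE, edgeR adjusted p 8.1e-08) differed most, 62 against 32 CPM and 26 against 14 CPM as group means. Spry2 (0.53 ± 0.08 SE), Dusp4 (0.42 ± 0.06 SE), Dusp5 (0.32 ± 0.07 SE) and Spred2 (0.26 ± 0.06 SE) were also higher. Spry4 was lower (-0.36 ± 0.09 SE, edgeR adjusted p 0.0063). The difference of Dusp6 was -0.09 ± 0.09 SE and was not called. The calls of Spred1 (0.23 ± 0.08 SE, edgeR adjusted p 0.039) and Etv4 (-0.17 ± 0.06 SE, edgeR adjusted p 0.041) lay near the threshold. Their loss was not tied to any particular library. Spred1 kept its call in 1 of the 12 fits that each left out a library, the fit without EV-proficient DMSO replicate 1, and lost it in the other 11 (0.17 without EV-proficient DMSO replicate 3) and under median-of-ratios (0.20) and upper-quartile scaling (0.20). Etv4 lost its call in all 6 fits that left out a DMSO library (-0.13 without EV-proficient DMSO replicate 2) and without the low-count filter (-0.13). Groups did not overlap for all 10 members, 7 higher and 3 lower, where 43.3% of all genes did not (24.8% higher, 18.5% lower).

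Under paclitaxel the direction was the opposite for most of the 10. The EV-deficient libraries were higher for 0 and lower for 9, where 37.8% of all tested genes were called (16.0% higher, 21.8% lower). At an unadjusted p under 0.05 the numbers were also 0 higher and 9 lower, with edgeR, with DESeq2 and with limma-voom, where 8336, 8291 and 8576 of the 18108 genes passed in either direction. The median of the 10 was -0.42 and that of all genes -0.005, with 58.2% of the genes called being higher under upper-quartile scaling against 42.4% in the main test. Spry1 (-1.08 ± 0.08 SE, edgeR adjusted p 2.0e-09) and Etv5 (-1.03 ± 0.08 SE, edgeR adjusted p 3.4e-09) differed most. They were followed by Spry2 (-0.77 ± 0.08 SE), Dusp5 (-0.69 ± 0.07 SE), Spred2 (-0.43 ± 0.06 SE), Etv4 (-0.42 ± 0.06 SE), Dusp6 (-0.33 ± 0.09 SE), Dusp4 (-0.27 ± 0.06 SE) and Spred1 (-0.26 ± 0.08 SE). The call of Spred1 was lost without EV-proficient paclitaxel replicate 1 (-0.22) and under upper-quartile scaling (-0.16). The value of Dusp6 rested in part on EV-deficient paclitaxel replicate 3, without which it was -0.20. Spry4 was at 0.06 ± 0.09 SE, not called, and its libraries overlapped, as did those of Dusp6. Groups did not overlap for 8 members, all lower, where 44.1% of all genes did not (19.9% higher, 24.1% lower).

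Of the 8 genes called between EV labels under both treatments, 7 had opposite signs and 1, Etv4, had the same sign. Opposite signs were the rule over all genes called under both (96%), so this count is not a result about these 10 genes. The order of the group means differed among the members. For Spry1, Etv5 and Spred2 it ran from EV-proficient paclitaxel through EV-deficient DMSO and EV-deficient paclitaxel to EV-proficient DMSO, with no neighbouring groups overlapping. Dusp4 and Spred1 had both paclitaxel groups above both DMSO groups, again with no overlap. For Dusp5 the order was EV-deficient DMSO, EV-proficient DMSO, EV-proficient paclitaxel and EV-deficient paclitaxel, and for Spry2 the middle groups were reversed, with no neighbours overlapping in either gene. The paclitaxel groups of Dusp6 and of Spry4, and the EV-proficient groups of Etv4, overlapped. The dngfr row also had opposite differences between EV labels in the 2 treatments.

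**Figure D3:**
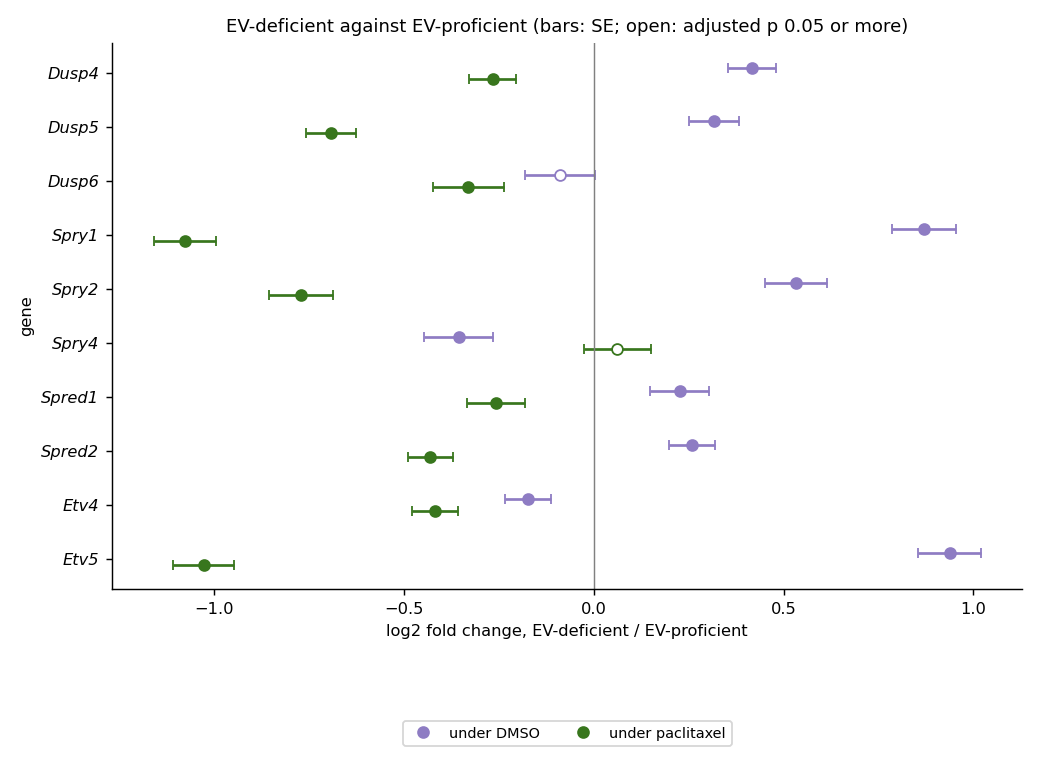
Log2 fold change of libraries labelled EV-deficient against EV-proficient (horizontal axis) for each ERK feedback gene, under DMSO and under paclitaxel; bars are standard errors and open symbols did not pass the threshold. For 7 genes the DMSO value is above 0 and the paclitaxel value below 0, with Spry1 and Etv5 farthest apart.

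The likeness of other genes to 1 member per family was measured as the mean absolute difference of log2 CPM over the 12 libraries, each gene centred on its own mean, among 10261 other genes at 5 CPM or more. The closest to Dusp6 were Srd5a1 (0.05), Pitpnc1 (0.08) and Zbtb18 (0.08), and to Spry2 were Htra1 (0.05), Ccdc85c (0.07) and P2ry2 (0.08). Among those closest to Spred1 were Arl5b (0.06) and Phospho2 (0.06), and the closest to Etv4 were Tubb4b (0.04), Esrra (0.05) and Sigirr (0.05). The nearest fellow member was Dusp4 for Dusp6 (0.18), Etv4 for Spry2 (0.26), and Spred2 for Spred1 (0.12) and for Etv4 (0.20), at ranks 436, 2135, 360 and 3217. The members closest to each other were Spry1 and Etv5 (0.09).

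The other genes of the pathway were described from 4 lists, by counts and medians, which are read against the genes called in all. Under paclitaxel 31.1% of all tested genes rose and 27.1% fell in the EV-proficient groups (median 0.05), and 32.4% rose and 30.5% fell in the EV-deficient groups (median 0.07). Of 10 family relatives outside the 10 genes, 5 rose and 3 fell under paclitaxel in the EV-proficient groups and 4 rose and 4 fell in the EV-deficient groups (medians 0.21 and -0.0024). Dusp9, a cytoplasmic ERK phosphatase, fell from 107 to 35.2 CPM as group means in the EV-deficient groups (-1.61 ± 0.07 SE) and by 0.18 on the log2 scale in the EV-proficient groups. Dusp2, a nuclear phosphatase, had opposite signs (1.09 ± 0.14 SE in the EV-proficient and -1.10 ± 0.13 SE in the EV-deficient groups). Spred3, the third Spred gene, rose in both (0.81 ± 0.11 SE and 0.45 ± 0.11 SE). Spry3, the remaining Sprouty gene, lay under 5 CPM and is given after its values were seen. It fell from 2.23 ± 0.22 to 0.99 ± 0.12 CPM in the EV-proficient groups (-1.19 ± 0.25 SE) and rose from 0.58 ± 0.19 to 3.60 ± 0.39 CPM in the EV-deficient groups (2.61 ± 0.26 SE), signs opposite to those of Spry1 and Spry2 (SD, n = 3 each). Its interaction was 3.8 ± 0.36 SE (edgeR adjusted p 2.6e-08).

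Of 35 genes of the RAS-RAF-MEK-ERK cascade and its regulators, 14 rose and 11 fell in the EV-proficient groups and 13 rose and 12 fell in the EV-deficient groups, against 58.2% and 62.9% of all genes called in either direction (list medians 0.09 and 0.04). Il17rd, which encodes the receptor-level feedback inhibitor Sef, changed most. It was at 8.62, 7.90 and 7.23 CPM in EV-proficient DMSO and 27.4, 28.2 and 24.1 CPM in EV-proficient paclitaxel libraries, and went from 6.30, 5.90 and 6.97 to 31.1, 37.6 and 29.7 CPM in the EV-deficient groups. The groups did not overlap, and the mean effect was 2.05 ± 0.08 SE (edgeR adjusted p 3.6e-15). Hras fell under both labels (-1.33 ± 0.08 SE and -1.07 ± 0.08 SE). Mapk3, which encodes ERK1, rose by 0.77 ± 0.07 SE and 1.25 ± 0.07 SE, and Map2k2, which encodes MEK2, changed by -0.32 ± 0.07 SE and -1.17 ± 0.07 SE.

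Of 19 other transcripts known to follow ERK activity, 11 rose and 3 fell in the EV-proficient groups (31.1% and 27.1% of all genes) and 6 rose and 7 fell in the EV-deficient groups (32.4% and 30.5%). Their medians were 0.54 and 0.03, against 0.05 and 0.07 over all genes. Between EV labels under paclitaxel 1 was higher and 10 were lower (median -0.35), where 16.0% of all genes were higher and 21.8% lower (median -0.005). The immediate early genes Fos (1.60 ± 0.18 SE and 1.16 ± 0.17 SE), Egr1 (1.43 ± 0.09 SE and 0.85 ± 0.09 SE) and Junb (1.47 ± 0.18 SE and 0.78 ± 0.18 SE) rose under both labels. Others of that class did not: Ier5 changed by 0.70 ± 0.08 SE and -0.63 ± 0.08 SE, Ier2 by 0.72 ± 0.11 SE and -0.32 ± 0.11 SE, and Fosb by 1.01 ± 0.16 SE and -0.13 ± 0.16 SE, the last value not called. Epha2, a receptor kinase gene, changed by -0.82 ± 0.07 SE and -1.40 ± 0.07 SE. The AP-1 gene Fosl1 fell in the EV-deficient groups (-1.53 ± 0.13 SE) and was at -0.07 ± 0.13 SE in the EV-proficient groups. Klf6 went from 571 to 115 CPM in the EV-proficient and from 130 to 528 CPM in the EV-deficient groups as group means, the largest interaction in the list (4.33 ± 0.09 SE).

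Of 20 receptor and ligand genes, 19 were tested. Under each EV label 8 rose and 7 fell, where 58.2% (EV-proficient) and 62.9% (EV-deficient) of all genes were called. Their medians were 0.17 and 0.15. Fgfr1, a fibroblast growth factor receptor gene, had means of 40.7 CPM under DMSO and 207 CPM under paclitaxel in the EV-proficient groups and of 168 and 88.9 CPM in the EV-deficient groups, the same order of groups as Spry1 and Etv5. Its interaction was -3.27 ± 0.09 SE. Egfr had opposite signs to these, falling in the EV-proficient (-0.79 ± 0.07 SE) and rising in the EV-deficient groups (0.44 ± 0.06 SE). The EGF-receptor ligand genes Areg (-1.48 ± 0.13 SE and -2.43 ± 0.13 SE) and Ereg (-0.77 ± 0.12 SE and -1.22 ± 0.12 SE) fell under both labels, and Erbb3 rose in both (1.60 ± 0.08 SE and 0.84 ± 0.08 SE).

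**Figure D4:**
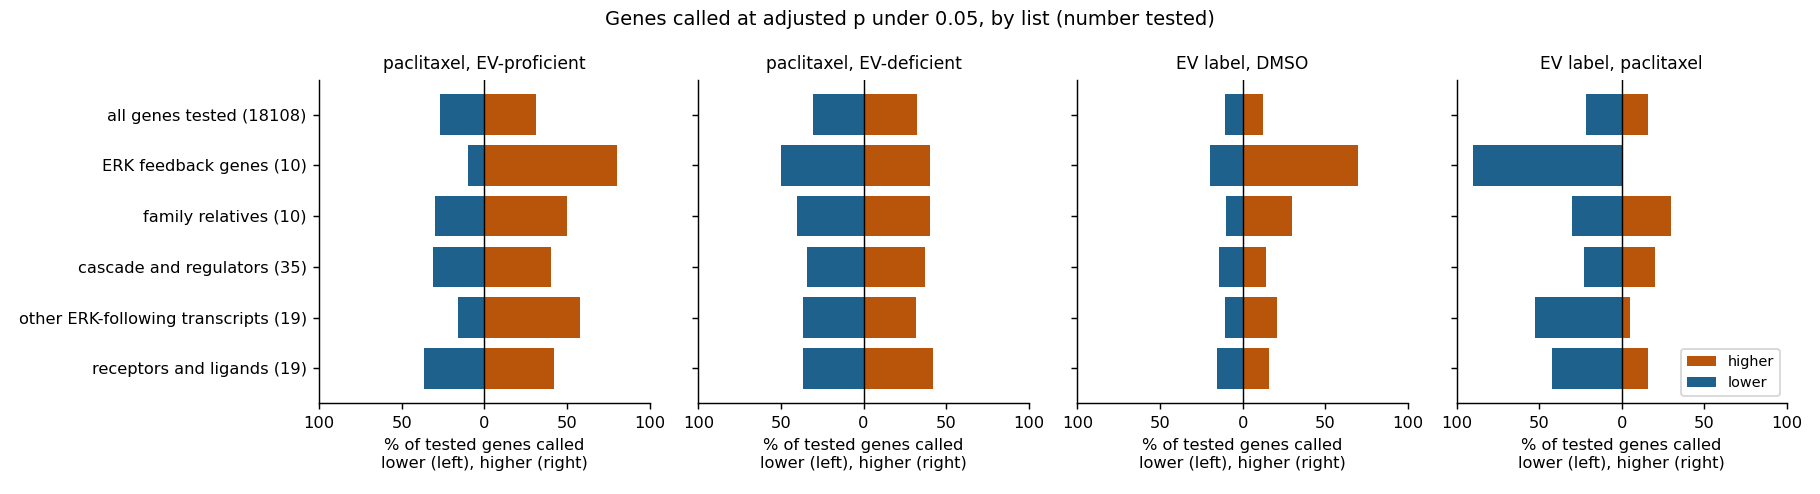
Share of tested genes called higher (right) or lower (left), in percent, for all genes and for 5 lists in 4 comparisons; the number tested stands beside each list. In the libraries as labelled, 9 of 10 ERK feedback genes are called lower between EV labels under paclitaxel, against 21.8% of all genes. Under DMSO 7 of 10 are called higher, against 12.4% of all genes.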

How the data were processed

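The deposited file is 1 table of raw counts per Ensembl gene from 12 stranded poly(A) libraries, per the labels' protocols. STAR 2.5.0a and the build GRCm38 are named in the submitters' processing notes, while the counting program, annotation release and strand setting are not given in the sources used here. Columns were matched to samples by the description in the labels, groups and replicate numbers come from the titles, and 0 columns belonged to other samples.

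These counts were tested with edgeR 4.0.16 under R 4.3.3. The 2 added rows (gfp, dngfr) were left out of library sizes and tests. Genes were kept by filterByExpr (minimum count 10), which left 18108 of 35104 genes with any count. Scaling used the trimmed mean of M values (TMM), and 1 quasi-likelihood model with 4 group means was fitted to all 12 libraries. P-values were Benjamini-Hochberg adjusted over all tested genes, with a threshold of 0.05. Standard errors are log2 fold changes over the root of F. RPKM used the union of GENCODE M21 exons (GRCm38). No set test was run. Totals of 23263472 counts or more left a floor of 3 counts at no more than 0.121 CPM. A chi-square statistic over its degrees of freedom was 4.20 to 27.8 for the 12 pairs of replicates, above sampling noise for every pair. The tests were tested on simulated counts beforehand. Alternatives were other scalings and filters, DESeq2 1.42.0, limma-voom (limma 3.58.1), the replicate block, only the groups compared, a gene's longest transcript as its length, and leaving out each library.

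The members, the lists and the rule for naming genes (all 10 members, up to 3 genes per other list and comparison with the largest called change at 5 CPM or more, and the 3 genes most like Dusp6, Spry2, Spred1 and Etv4) were chosen with earlier results of these data known. Not every gene the rule names is reported here.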

Additional observations from a re-analysis of the deposited data

Results flagged for a closer look

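The paclitaxel effect differed between the EV labels by the interaction test for 9 of the 10 ERK feedback genes, where 40.7% of all tested genes were called (23.8% negative, 16.9% positive). These values stand for the libraries as labelled. As EV-deficient minus EV-proficient on the log2 scale, the differences were -1.97 for Etv5, -1.95 for Spry1, -1.30 for Spry2, -1.01 for Dusp5, -0.69 for Spred2, -0.68 for Dusp4, -0.48 for Spred1, -0.25 for Etv4 and 0.42 for Spry4. With the EV labels of 1 treatment exchanged, the sizes would be 0.09 for Etv5, 0.21 for Spry1, 0.24 for Spry2, 0.38 for Dusp5 and 0.59 for Etv4, so their order holds only for the labels as given.

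A signal also appeared in a row that no comparison used. The dngfr row had means (± SD, n = 3 each) of 8.99 ± 3.2 and 3.24 ± 0.68 CPM under DMSO and paclitaxel in the EV-proficient groups and of 2.15 ± 0.35 and 10.9 ± 1.4 CPM in the EV-deficient groups, above the level of 3 counts in all 12 libraries.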

How the results depend on the processing

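With all libraries kept, 445 of 460 log2 fold changes of the 10 genes under the alternatives had the main direction and call, 11 lost their call, 1 gained one and 3 changed sign. Those 3 were Etv4 under paclitaxel in the EV-proficient groups (0.048 with upper-quartile scaling, 0.015 without the low-count filter) and Spred2 in the EV-deficient groups (0.059 with upper-quartile scaling), both not called in the main test. Leaving out a library gave 684 of 720 with the same direction and call, 30 that lost it, 4 that gained it and 2 that changed sign, with ranges of -0.11 to 0.024 for that value of Etv4 and -0.020 to 0.12 for Spry4 between EV labels under paclitaxel.

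The number of members called lower by paclitaxel in the EV-deficient groups was 3 with upper-quartile scaling (4239 of 18108 genes lower, against 5523 in the main test), the number lower between EV labels under DMSO was 1 without the low-count filter (1600 of 35104 genes, against 1920 of 18108) and 1 to 2 with a library left out, and the number with a positive interaction was 0 without the filter (2661 of 35104 genes, against 3052 of 18108; 1 member at an unadjusted p under 0.05). The cause was not tested. Among same-numbered libraries, 0 of 18 pairs had deviations that correlated above 0.1 (-0.08 to 0.10). Whether same-numbered libraries were cultured or handled together cannot be told from this. With the replicate block 10520 and 11363 genes were called for paclitaxel, against 10538 and 11396. With the longest transcript as length, the order of the members' levels changed only in EV-deficient paclitaxel libraries, where Etv4 passed Dusp5.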

Other observations

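Etv1, the third Pea3 factor, lay under the 5 CPM needed for naming and is given here after its values were seen. It was at 0.45 to 1.11 CPM in EV-proficient DMSO and 6.31 to 9.14 CPM in EV-proficient paclitaxel libraries, and at 0.50 to 0.81 and 7.89 to 9.52 CPM in the EV-deficient groups. All 6 paclitaxel libraries lay above all 6 DMSO libraries. The mean paclitaxel effect was a log2 fold change of 3.56 ± 0.18 SE, or 11.8-fold (edgeR quasi-likelihood adjusted p 1.5e-13), and the interaction was not called (0.44 ± 0.36 SE, edgeR adjusted p 0.37). Its relatives Etv4 and Etv5, by contrast, were at -0.14 and 0.67 in the mean effect. In the libraries as labelled, the mean of Etv5 joins a rise in the EV-proficient groups (1.65) and a fall in the EV-deficient groups (-0.31).

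Hras and Nras, which encode RAS GTPases and are also given here after their values were seen, had different patterns. Hras went from 133 ± 11 to 53.2 ± 3.8 CPM in the EV-proficient and from 116 ± 4.8 to 55.3 ± 6.9 CPM in the EV-deficient groups (SD, n = 3 each), with an interaction that was not called (0.26 ± 0.12 SE, edgeR adjusted p 0.082). Nras fell in the EV-proficient groups (-0.55 ± 0.06 SE) and was at 0.04 ± 0.06 SE in the EV-deficient groups, and the difference was called (0.60 ± 0.09 SE, edgeR adjusted p 8.2e-06).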
